A study of Mus musculus with 24 samples.

Results

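The genes described here encode 10 acute-phase proteins of the liver, chosen by name from the deposited gene table: the orosomucoids Orm1, Orm2 and Orm3, haptoglobin (Hp), hemopexin (Hpx), lipopolysaccharide-binding protein (Lbp), the pentraxins Crp and Apcs, Itih4 and Lrg1. They are 10 of the 33272 genes in the table, each with 1 gene ID, and all 10 had enough counts to be tested in both tissues. RNA of liver and kidney from C57BL/6 mice was sequenced in 4 arms of 3 libraries per tissue, 24 libraries in all. The combination arm received the flagellin-derived TLR5 agonist CBLB502 at 0.2 mg/kg 30 min before cisplatin at 20 mg/kg into the peritoneum. The cisplatin arm received cisplatin at 20 mg/kg, and the CBLB502 arm received the agonist at 0.2 mg/kg without cisplatin. Tissue of treated mice was taken at 72 h, and the untreated controls have no time, vehicle or injection in the labels. The sources used here do not give age, sex or pooling. They also do not say whether the 3 libraries of a group are 3 animals, and each p-value therefore reflects library-to-library spread that could be technical.

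Acute-phase proteins are secreted into plasma, mostly by hepatocytes, when inflammatory cytokines reach the liver. Interleukin-6 acts through the transcription factor STAT3, and interleukin-1 through NF-kB and C/EBP factors, on partly different sets of these genes. Haptoglobin binds free hemoglobin and hemopexin binds free heme, while orosomucoids carry lipophilic compounds and dampen immune responses. Lbp hands bacterial lipopolysaccharide to the receptor CD14, and the pentraxins bind microbial surfaces and cell debris. In mice the main acute-phase pentraxin is serum amyloid P, the product of Apcs, whereas Crp is the main one in humans. Itih4 belongs to the inter-alpha-trypsin inhibitor heavy chains, and Lrg1 is a secreted leucine-rich glycoprotein that modulates TGF-beta signalling in vessels.

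The control libraries differ from the treated ones in more than treatment. Mitochondrial genes took 6.32% to 14.2% of counts in treated kidneys and 2.57% to 7.11% in treated livers, against 60.7% to 69.0% in control kidneys and 69.3% to 72.2% in control livers. Totals ran from 54.1 M to 77.1 M counts in treated kidneys and from 53.5 M to 77.5 M in treated livers, against 52.9 M to 55.2 M in control kidneys and 40.6 M to 42.6 M in control livers. Every comparison with controls therefore also compares these kinds of library, and the 2 cannot be told apart. All 8 proximal tubule markers were detected in each kidney library and all 8 hepatocyte markers in each liver library. In bulk tissue, fewer cells of a type and less RNA per cell cannot be told apart.

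Promoters are shown for 5 members whose liver responses differ: Hpx and Itih4, which were lower in the combination than in cisplatin livers, the neighbours Orm2 and Orm3, and Crp, which varied least among treated livers. The sequences are the 250 bases before each RefSeq start site in GRCm38.p6, read 5′ to 3′ on the gene's strand: Hpx chr7:105600117-105600366 (minus strand), Itih4 chr14:30886226-30886475 (plus strand), Orm2 chr4:63362199-63362448 (plus strand), Orm3 chr4:63355908-63356157 (plus strand) and Crp chr1:172697806-172698055 (plus strand). Capitals mark a C/EBP motif (TTGCNNAA) in Hpx, Orm2 and Orm3 and a STAT motif (TTCNNNGAA) in Itih4.
Hpx: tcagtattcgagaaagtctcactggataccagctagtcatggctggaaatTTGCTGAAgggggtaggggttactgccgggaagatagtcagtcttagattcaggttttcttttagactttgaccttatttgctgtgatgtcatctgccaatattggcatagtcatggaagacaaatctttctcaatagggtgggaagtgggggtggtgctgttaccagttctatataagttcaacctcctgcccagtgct
Itih4: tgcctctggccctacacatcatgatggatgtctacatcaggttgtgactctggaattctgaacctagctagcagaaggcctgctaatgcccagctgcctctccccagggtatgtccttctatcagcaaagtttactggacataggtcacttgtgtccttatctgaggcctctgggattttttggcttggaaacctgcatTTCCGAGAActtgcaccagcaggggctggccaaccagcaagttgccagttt
Orm2: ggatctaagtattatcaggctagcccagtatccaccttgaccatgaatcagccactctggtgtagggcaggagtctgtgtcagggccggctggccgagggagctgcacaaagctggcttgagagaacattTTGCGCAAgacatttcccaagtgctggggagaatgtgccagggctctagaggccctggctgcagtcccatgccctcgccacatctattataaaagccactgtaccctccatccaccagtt
Orm3: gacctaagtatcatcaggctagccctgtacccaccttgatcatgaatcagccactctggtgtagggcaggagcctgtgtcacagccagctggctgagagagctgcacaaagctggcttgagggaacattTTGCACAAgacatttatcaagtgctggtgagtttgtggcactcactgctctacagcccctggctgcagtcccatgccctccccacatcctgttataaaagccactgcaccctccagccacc
Crp: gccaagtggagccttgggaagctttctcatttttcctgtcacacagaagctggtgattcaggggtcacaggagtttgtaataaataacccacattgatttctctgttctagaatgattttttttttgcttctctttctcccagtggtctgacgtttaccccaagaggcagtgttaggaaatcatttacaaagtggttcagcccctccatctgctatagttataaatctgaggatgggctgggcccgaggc
Both motifs were searched on both strands of the 300-base windows that RefSeq start sites gave, which include 50 bases after the start, and no member window held both. Of 7 members with a window, 3 held the C/EBP motif (Orm2, Orm3 and Hpx), against 10.8% of 32851 promoters of that length. The STAT motif was in 2 (Apcs and Itih4), against 8.3% of all promoters. No member window held the longer consensus motifs searched for NF-kB, HNF1 and the glucocorticoid receptor, which were in 1.2%, 0.399% and 0.00913% of all promoters. A match describes letters only, and a missing match says nothing about the factor. The Orm2 and Orm3 windows were 86.2% identical over 305 aligned columns.

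The 3 orosomucoid genes lie side by side on chromosome 4 of GRCm38: Orm1 (ENSMUSG00000039196, 63344560 to 63348163, plus strand), Orm3 (ENSMUSG00000028359, 63356162 to 63359511, plus strand) and Orm2 (ENSMUSG00000061540, 63362449 to 63365878, plus strand). Their transcripts were 91% identical between Orm1 and Orm2, 86.1% between Orm1 and Orm3 and 88% between Orm2 and Orm3. Of the 50-base windows of the Orm1 transcript, 20.4% occur unchanged in Orm2 and 2.2% in Orm3, so reads can be split between the copies and the values of Orm2 and Orm3 are uncertain to that extent. The pentraxins share chromosome 1, with Crp (ENSMUSG00000037942, 172698055 to 172833031, plus strand) and Apcs (ENSMUSG00000026542, 172893961 to 172895041, minus strand). Crp overlaps the predicted gene Gm38051, and without a stated strand setting reads of overlapping genes cannot be told apart. The others are Hp (ENSMUSG00000031722, 109575128 to 109579172, minus strand) on chromosome 8, Hpx (ENSMUSG00000030895, 105591613 to 105600137, minus strand) on chromosome 7, Lbp (ENSMUSG00000016024, 158306493 to 158320956, plus strand) on chromosome 2, Itih4 (ENSMUSG00000021922, 30886476 to 30902353, plus strand) on chromosome 14 and Lrg1 (ENSMUSG00000037095, 56119678 to 56122001, minus strand) on chromosome 17.

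In liver, 9 of the 10 genes were higher with cisplatin than with CBLB502 alone, Crp being the exception, against 7.7% of all 17931 genes tested that were higher. The median difference of the 10 was 3.75 on the log2 scale, against -0.06 over all genes. In the combination, 3 of 10 (Hpx, Orm1 and Itih4) were lower than with cisplatin, against 2.58% of all genes, with a median of -1.56 against 0.01. Against CBLB502, 4 of 10 were higher in the combination (Orm3, Hp, Lrg1 and Lbp), against 2.88% of all genes, with a median of 1.9 against 0.02. All 10 genes lay higher in each combination library and in each cisplatin library than in any CBLB502 library. The same held for 25.1% of all genes tested in the combination and 17.4% with cisplatin. Calls are edgeR quasi-likelihood tests with Benjamini-Hochberg adjusted p under 0.05 over all genes, levels are CPM (read counts scaled to the TMM-adjusted size of each library), and log2 fold changes carry their SE.

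**Figure D1:**
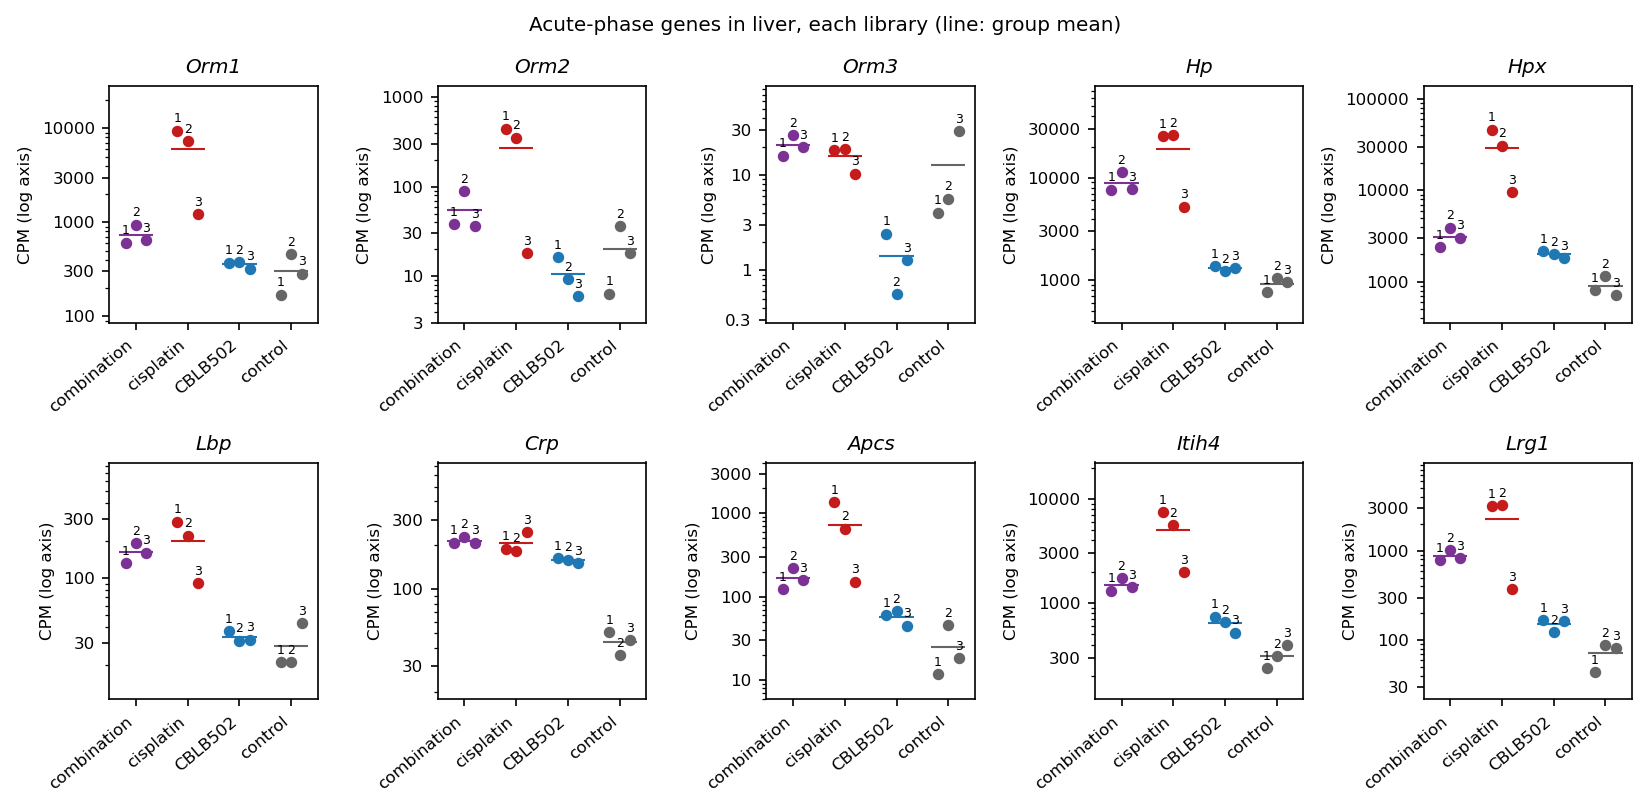
Each point is 1 liver library, numbered as in the deposited table, with CPM on a log axis and a line at the group mean (n = 3). For 9 genes cisplatin library 3 is the lowest of its arm, and for Crp it is the highest.

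Cisplatin library 3 stands apart from the other cisplatin livers and touches each result of that arm. For Orm1, Orm2, Hp, Hpx, Lbp, Apcs, Itih4, Lrg1 and Orm3 it was the lowest cisplatin library, and for Crp the highest. The 10 neutrophil markers summed to 28.9, 38.9 and 2.38 CPM in cisplatin libraries 1, 2 and 3, to 0.245 to 0.742 CPM in combination livers, 2.24 to 3.39 CPM in CBLB502 livers and 9.6 to 14 CPM in control livers. Between 4 and 7 of the 10 were detected in a cisplatin library and 1 to 5 in a combination library. The granule genes Mpo and Elane had no count in cisplatin livers, and S100a8 and S100a9 reached 11.5 and 17.0 CPM there. Macrophage markers, all 8 detected in each library, summed to 18.5 to 26.2 CPM in combination livers, 29.8 to 84.4 CPM in cisplatin livers and 121 to 229 CPM in CBLB502 livers. The 5 erythroid markers summed to 11.5 to 17.2 CPM in combination livers, 4.23 to 9.42 CPM in cisplatin livers and 173 to 189.6 CPM in CBLB502 livers. The 8 lymphocyte markers summed to 0.211 to 0.617 CPM in combination, 0.273 to 1.52 CPM in cisplatin and 8.68 to 14.4 CPM in CBLB502 livers, and the 7 endothelial markers to 9.31 to 14.6 CPM in combination, 8.89 to 27.7 CPM in cisplatin and 44.5 to 92.2 CPM in CBLB502 livers. In combination livers 4 to 5 erythroid, 4 lymphocyte and 6 to 7 endothelial markers were detected, in cisplatin livers 3 to 5, 2 to 6 and 6 to 7 of them, and in CBLB502 livers all. Markers of macrophages, erythroid cells, lymphocytes and endothelium were thus lower in both cisplatin-treated arms than with CBLB502. Within the cisplatin arm, library 3 had the highest sum for each of these 4 cell types. Macrophage markers had 32.4, 29.8 and 84.4 CPM and erythroid markers 4.79, 4.23 and 9.42 CPM in libraries 1, 2 and 3. Lymphocyte markers had 0.292, 0.273 and 1.52 CPM and endothelial markers 8.89, 17.7 and 27.7 CPM there. Hepatocyte markers summed to 59242 to 77379 CPM in combination livers, 60006 to 83610.1 CPM in cisplatin livers and 48009 to 59512 CPM in CBLB502 livers. The part of these cells in the results was not tested.

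Among the hemoglobin and heme binders, Hp had 7648, 11368 and 7742 CPM in the 3 combination livers, 25558, 26050.4 and 5207 CPM in the cisplatin livers, 1377, 1229 and 1319 CPM in the CBLB502 livers and 771, 1055 and 965 CPM in the control livers. All combination and cisplatin libraries lay above all CBLB502 libraries, while the combination overlapped cisplatin through cisplatin library 3. Hp rose in the combination (6.82-fold the CBLB502 mean, 2.77 ± 0.50, adjusted p = 0.00756 from edgeR) and with cisplatin (14.5-fold, 3.86 ± 0.52, adjusted p = 0.00145). Its difference between the combination and cisplatin did not pass (-1.09 ± 0.47, adjusted p = 0.214). Hpx had 2404, 3910.5 and 3045 CPM in combination livers, 46189.9, 30799.9 and 9573 CPM in cisplatin livers, 2172, 2015 and 1812 CPM in CBLB502 livers and 806, 1153 and 709 CPM in control livers. Here the lowest cisplatin library was above the highest combination library. Hpx rose with cisplatin 14.4-fold over CBLB502 (3.85 ± 0.51, adjusted p = 0.00128). In the combination it fell by 3.21 ± 0.49 on the log2 scale relative to cisplatin (adjusted p = 0.0102), a mean 9.25-fold lower, and it differed from CBLB502 by 0.64 ± 0.46 (adjusted p = 0.523). The pair thus stood in a different order by arm: per kilobase of gene length, Hp averaged 4765 ± 1133 and Hpx 1789 ± 434 CPM per kb in combination livers (SD, n = 3), against 10117 ± 6354 and 16542 ± 10541 CPM per kb in cisplatin livers.

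Orm1, the most abundant orosomucoid here, had 610.2, 946 and 649 CPM in combination livers, 9417, 7283 and 1218 CPM in cisplatin livers, 371, 375 and 322 CPM in CBLB502 livers and 170.2, 459 and 285 CPM in control livers. No combination library reached the lowest cisplatin library. Orm1 rose 16.8-fold with cisplatin over CBLB502 (4.07 ± 0.65, adjusted p = 0.00308) and fell in the combination relative to cisplatin (-3.02 ± 0.62, a mean 8.12-fold lower, adjusted p = 0.0263). Orm2 had 38.4, 89.1 and 35.9 CPM in combination livers, 446, 354 and 18 CPM in cisplatin livers, 16.2, 9.19 and 5.98 CPM in CBLB502 livers and 6.36, 36.3 and 18.1 CPM in control livers. By the ratio of the highest to the lowest library, Orm2 spread more within the cisplatin arm than any other member, with library 3 close to the CBLB502 level. Among treated arms only its rise with cisplatin over CBLB502 passed (26.1-fold, 4.71 ± 1.03, adjusted p = 0.0137). Orm3 had 16.1, 26.3 and 19.7 CPM in combination livers, 18.2, 18.7 and 10.4 CPM in cisplatin livers, 2.43, 0.558 and 1.27 CPM in CBLB502 livers and 4.04, 5.65 and 28.9 CPM in control livers. The combination and cisplatin arms overlapped at about the same level, and both were above CBLB502. Orm3 rose 14.6-fold in the combination over CBLB502 (3.86 ± 0.74, adjusted p = 0.0102) and 11.1-fold with cisplatin (3.47 ± 0.73, adjusted p = 0.0113), while the combination differed from cisplatin by 0.39 ± 0.65 (adjusted p = 0.805). Without CBLB502 library 3 the adjusted p of Orm3 in the combination was 0.0545, and without CBLB502 library 2 or 3 those of Orm2 and Orm3 with cisplatin were between 0.0542 and 0.072.

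Among the proteins that bind microbes and debris, Lbp had 132, 191 and 159.6 CPM in combination livers, 283, 219 and 90.8 CPM in cisplatin livers, 37.1, 31.4 and 32.0 CPM in CBLB502 livers and 21.1, 21.1 and 43.5 CPM in control livers. Combination and cisplatin livers overlapped, and both lay above all CBLB502 livers. Lbp rose 4.80-fold in the combination over CBLB502 (2.26 ± 0.41, adjusted p = 0.00757) and 5.90-fold with cisplatin (2.56 ± 0.41, adjusted p = 0.00322). Apcs had 124, 219.7 and 159.5 CPM in combination livers, 1355, 657 and 152 CPM in cisplatin livers, 60.2, 67.9 and 45.2 CPM in CBLB502 livers and 11.8, 45.9 and 18.4 CPM in control livers. The values of cisplatin library 3 fell inside the combination's range. Apcs rose 12.5-fold with cisplatin over CBLB502 (3.64 ± 0.72, adjusted p = 0.00872, and 0.0517 without CBLB502 library 3), and the combination differed from cisplatin by -2.10 ± 0.67 (adjusted p = 0.0997). Crp had 209, 229.7 and 208 CPM in combination livers, 190.3, 184 and 245 CPM in cisplatin livers, 163, 159 and 150.4 CPM in CBLB502 livers and 50.9, 35.5 and 44.8 CPM in control livers. The 9 treated livers stayed between 150.4 and 245 CPM, all above the controls. Crp differed from CBLB502 by 0.45 ± 0.20 in the combination (adjusted p = 0.225) and by 0.39 ± 0.20 with cisplatin (adjusted p = 0.221), neither past the threshold.

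Itih4 had 1316, 1749.8 and 1432 CPM in combination livers, 7483, 5651 and 1976 CPM in cisplatin livers, 743, 660.2 and 521 CPM in CBLB502 livers and 238, 308 and 396 CPM in control livers. The arms did not overlap, with cisplatin highest, then the combination, CBLB502 and the controls. Itih4 rose 7.85-fold with cisplatin over CBLB502 (2.97 ± 0.43, adjusted p = 0.00203) and fell in the combination relative to cisplatin (-1.75 ± 0.41, a mean 3.36-fold lower, adjusted p = 0.0434). Lrg1 had 777, 1013 and 820.3 CPM in combination livers, 3125, 3218 and 371 CPM in cisplatin livers, 166, 124 and 163 CPM in CBLB502 livers and 43.7, 88.2 and 82.0 CPM in control livers. Cisplatin libraries 1 and 2 were above and library 3 below the whole combination arm. Lrg1 rose 14.8-fold with cisplatin over CBLB502 (3.89 ± 0.65, adjusted p = 0.00388) and 5.77-fold in the combination (2.53 ± 0.61, adjusted p = 0.0319). The second call was lost when any 1 of the 6 libraries compared was left out, with adjusted p between 0.0757 and 0.137.

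**Figure D2:**
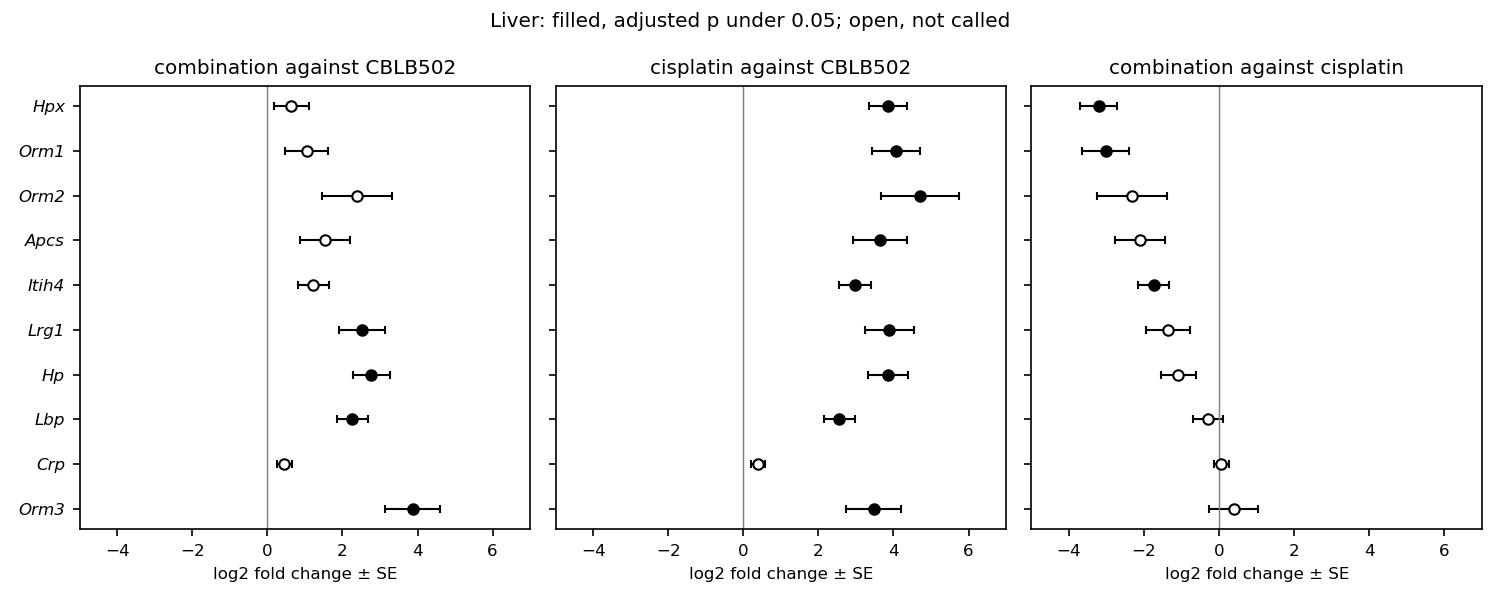
Log2 fold changes ± SE of the 10 genes in liver for 3 comparisons of treated arms (filled, adjusted p under 0.05 from edgeR, 12 libraries in the fit). In the right panel values run from Hpx at -3.21 ± 0.49 to Orm3 at 0.39 ± 0.65.

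The comparison of the combination with cisplatin in liver rests on few libraries. Hpx, Orm1 and Itih4 were called with all libraries, and 7 genes were called lower when cisplatin library 3 was left out (Orm1, Orm2, Hp, Hpx, Apcs, Itih4 and Lrg1), with log2 values from -3.61 for Hpx to -1.52 for Hp. Leaving out cisplatin library 1 or 2 left 1 call, Hpx, and leaving out any combination library left 0 by edgeR. Shares over all genes for the fits with 1 library left out are not given here. Of the 10, 7 had an unadjusted p under 0.05 with all libraries, as did 3790 of all 17931 genes. DESeq2 called 5 of 10 lower, adding Orm2 and Apcs, but it also called 1682 of all 17931 genes lower, against 462 by edgeR. With all libraries, the genes that did not pass by edgeR had differences of -2.33 ± 0.93 (Orm2), -2.10 ± 0.67 (Apcs), -1.36 ± 0.59 (Lrg1), -1.09 ± 0.47 (Hp), -0.30 ± 0.39 (Lbp), 0.06 ± 0.20 (Crp) and 0.39 ± 0.65 (Orm3), and their arms overlapped. Those that did not pass in the combination against CBLB502 were Orm2 (2.38 ± 0.93), Apcs (1.54 ± 0.66), Itih4 (1.23 ± 0.41), Orm1 (1.05 ± 0.58), Hpx (0.64 ± 0.46) and Crp (0.45 ± 0.20). Leaving out 1 library moved the log2 value of Hpx between -3.61 and -2.70, of Orm1 between -3.49 and -2.53 and of Itih4 between -2.12 and -1.35.

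Liver levels per kilobase placed Hpx, Hp and Orm1 as the 3 highest members in each arm. In cisplatin livers Hpx (16542 ± 10541), Hp (10117 ± 6354) and Orm1 (6617 ± 4713 CPM per kb) had overlapping SD ranges (n = 3). The order was nevertheless the same in each cisplatin library, with Hpx above Hp and Hp above Orm1. In cisplatin library 3, the lowest, they had 5488, 2782 and 1350 CPM per kb. In combination livers Hp was above Hpx and Hpx above Orm1 (815 ± 204 CPM per kb) by more than their SD. Lowest in cisplatin livers was Orm3 at 17.5 ± 5.18 CPM per kb, next to Lbp at 35.1 ± 17.4 and Crp at 51.6 ± 8.43. The lengths behind these values came from the deposited FPKM. They were 4004 bases for Crp and 901 for Orm2, against 1695 and 775 for their longest annotated coding transcripts. The place of Crp among the members therefore depends on the length used. The lengths of Lbp (5631 bases) and Itih4 (4297 bases) were longer still and were not set against transcripts, so their places rest on the length as well. In CBLB502 livers the order ran from Hpx (1146 ± 104) over Hp (699 ± 39.8) and Orm1 (394 ± 32.8) down to Lbp (5.95 ± 0.563) and Orm3 (1.58 ± 1.05 CPM per kb).

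Against the control livers, 7 of 10 genes were higher in the combination (23.8% of all genes were), 9 with cisplatin (25.6%) and 1 with CBLB502, where 1 was also lower (18.3% of all genes were higher and 9.48% lower). Hpx rose 32.5-fold and Lrg1 31.4-fold with cisplatin over control (adjusted p = 3.46e-05 and 0.000174 from edgeR). Crp was the gene higher with CBLB502 (1.85 ± 0.20, adjusted p = 0.000108), and it rose also with cisplatin (2.24 ± 0.21) and in the combination (2.30 ± 0.21). Hepatocyte markers moved the same way, summing to 48009 to 83610.1 CPM in treated livers against 13408 to 26797 CPM in control livers. Per 1000 counts of the hepatocyte gene Alb, Crp had 4.29 to 5.43 in combination livers, 3.23 to 5.82 in cisplatin livers, 3.77 to 4.62 in CBLB502 livers and 1.92 to 6.39 in control livers, so that all arms overlapped on this scale. Of the other members called in the combination, Hpx, Lbp and Itih4 overlapped the controls on it, while Hp, Apcs and Lrg1 stayed above them. With cisplatin Hpx and Apcs stayed above all controls and Lbp overlapped them. Orm1, Orm2, Hp, Itih4 and Lrg1 overlapped the controls through cisplatin library 3 alone. Orm3 was the gene lower with CBLB502 (-3.17 ± 0.73, adjusted p = 0.00731), with control library 3 far above the other controls. Orm1 and Orm2 were not called in the combination against control (1.27 ± 0.58 and 1.42 ± 0.91). Scaling by median of ratios moved the median of all genes by more than 0.1 in these comparisons: for cisplatin against control it was -0.14, against 0.09 with TMM. The counts of called members were 7, 9 and 2 under both scalings.

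The interaction, combination minus CBLB502 minus the difference of cisplatin and control, asks whether the change with cisplatin differed when CBLB502 came before it. In liver it passed for 6 of 10 genes, 5 lower (14.5% of all genes) and 1 higher (7.14%). The lower ones were Hpx (-4.38 ± 0.67, adjusted p = 0.00123 from edgeR), Apcs (-3.29 ± 0.94), Orm1 (-3.25 ± 0.83), Itih4 (-2.78 ± 0.58) and Crp (-1.79 ± 0.28). Orm3 was the higher one (3.57 ± 0.97, adjusted p = 0.0216). Because the term includes the controls, it also holds the difference in kind between libraries described above. Apcs and Orm3 lost their call when single libraries were left out, Apcs for 7 of the 12 and Orm3 for 4 of the 12, Orm3 falling to 2.14 without control library 3.

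Kidney levels of the 10 genes were lower than in liver in every arm, all 10 called (lower in 17.2% of all genes in the combination, 15.4% in cisplatin, 13.3% in CBLB502 and 16.7% in control arms). In cisplatin arms the mean was 1455-fold lower for Hpx and 18-fold lower for Lrg1, the most and the least distant members. In kidney, 4 of 10 genes were higher with cisplatin than with CBLB502, against 18.5% of all 20341 genes tested: Orm2, Hpx, Itih4 and Lrg1. The median of the 10 was 2.87 on the log2 scale, against -0.05 for all genes. In the combination 2 of 10, Orm2 and Lrg1, were higher than with CBLB502, against 14.9% of all genes. Markers of other cell types moved along these arms. The 5 erythroid markers summed to 2.09 to 6.73 CPM in combination kidneys, 1.03 to 4.54 CPM in cisplatin kidneys and 164 to 718 CPM in CBLB502 kidneys. The 8 lymphocyte markers summed to 1.17 to 1.58 CPM in combination, 0.141 to 2.90 CPM in cisplatin and 8.64 to 11.5 CPM in CBLB502 kidneys. The 7 endothelial markers, all detected in each library, summed to 24.9 to 74.1 CPM in combination, 13.9 to 118 CPM in cisplatin and 124 to 228 CPM in CBLB502 kidneys. Between 4 and 5 erythroid markers and 3 and 7 lymphocyte markers were detected in combination and cisplatin kidneys. Proximal tubule markers summed to 14140.3 to 16341 CPM in combination kidneys, 6028 to 17605 CPM in cisplatin kidneys and 16913 to 23569.8 CPM in CBLB502 kidneys. The part of these cells in the kidney results was not tested.

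Lrg1 reached the highest kidney level of the 10 genes, with 18.5, 26.9 and 18.7 CPM in combination kidneys, 436, 325 and 8.59 CPM in cisplatin kidneys, 1.61, 1.57 and 3.19 CPM in CBLB502 kidneys and 17.0, 1.52 and 3.58 CPM in control kidneys. Cisplatin libraries 4 and 5 were far above every other kidney, and cisplatin library 6 lay below the combination kidneys. Lrg1 rose 121-fold with cisplatin over CBLB502 (6.92 ± 1.29, adjusted p = 0.00263 from edgeR) and 10.1-fold in the combination (3.33 ± 1.10, adjusted p = 0.0457). The second call was lost without any 1 of the 6 libraries, with adjusted p between 0.0813 and 0.15. The 10 neutrophil markers summed to 0.418 to 2.20 CPM in combination kidneys, 6.57, 28.2 and 1.36 CPM in cisplatin kidneys 4, 5 and 6, 1.48 to 1.78 CPM in CBLB502 kidneys and 2.87 to 5.24 CPM in control kidneys, with 4 to 6 detected in a library, and their part was not tested. Library 6 was the lowest cisplatin kidney for 5 genes (Lrg1, Hp, Orm2, Orm3 and Crp) and library 4 for the other 5, whereas in liver library 3 was the lowest for 9.

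Hp had 73.7, 15.3 and 21.7 CPM in combination kidneys, 66.4, 95.7 and 46.2 CPM in cisplatin kidneys, 6.03, 4.71 and 13.5 CPM in CBLB502 kidneys and 113, 1.19 and 40.4 CPM in control kidneys. Combination and cisplatin kidneys lay above all CBLB502 kidneys, and the controls ran both below and above all treated kidneys. Its difference between cisplatin and CBLB502 missed the threshold (3.10 ± 1.08, adjusted p = 0.0506) and passed without cisplatin library 6 (3.33, adjusted p = 0.0286). Hpx had 21.6, 3.39 and 3.45 CPM in combination kidneys, 32.2, 53.9 and 35.1 CPM in cisplatin kidneys, 4.53, 4.66 and 4.36 CPM in CBLB502 kidneys and 1.10, 0.451 and 6.60 CPM in control kidneys. Itih4 had 7.98, 2.29 and 2.30 CPM in combination kidneys, 7.70, 12.4 and 8.94 CPM in cisplatin kidneys, 1.40, 1.03 and 2.13 CPM in CBLB502 kidneys and 3.64, 0.41 and 1.35 CPM in control kidneys. For both genes combination library 4 was near the cisplatin level and libraries 5 and 6 near the CBLB502 level. Hpx rose 8.96-fold with cisplatin over CBLB502 (3.16 ± 0.87, adjusted p = 0.019), and Itih4 rose 6.36-fold (2.67 ± 0.69, adjusted p = 0.0144). Hpx lost its call without cisplatin library 5 or any CBLB502 library and Itih4 without CBLB502 library 4 or 5, with adjusted p between 0.0598 and 0.0707.

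Orm1 had 6.56, 0.916 and 1.29 CPM in combination kidneys, 8.0, 13.7 and 9.21 CPM in cisplatin kidneys, 0.742, 1.42 and 1.49 CPM in CBLB502 kidneys and 29.6, 0 and 8.0 CPM in control kidneys. Cisplatin kidneys were above all CBLB502 kidneys, yet the difference did not pass (3.08 ± 1.27, adjusted p = 0.0901). Orm2 had no count in CBLB502 or control kidneys, 0.272, 0.112 and 0.0576 CPM in combination kidneys and 1.61, 0.913 and 0.469 CPM in cisplatin kidneys. Against 3 counts over the whole group, its mean was at least 96.3-fold higher with cisplatin than with CBLB502 (adjusted p = 0.00251) and at least 14.2-fold higher in the combination (adjusted p = 0.0109), bounds that cover counting error only. Orm3 was between 0 and 0.178 CPM in all treated kidneys and passed in no comparison among them. Reads shared with Orm1 could enter both copies.

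Lbp varied least in kidney, with 2.04, 3.83 and 2.69 CPM in combination kidneys, 2.22, 3.33 and 2.52 CPM in cisplatin kidneys, 3.09, 2.19 and 2.91 CPM in CBLB502 kidneys and 3.64, 2.50 and 1.77 CPM in control kidneys. All arms overlapped. Lbp differed between cisplatin and CBLB502 by -0.02 ± 0.35 (adjusted p = 0.975), against 2.56 ± 0.41 in liver, and the difference between the tissues passed its own test (-2.70 ± 0.51, adjusted p = 0.00799 from edgeR). That was 1 of 10 members called, against 2.08% of all 21570 genes. Crp had 0.397, 0.204 and 0.317 CPM in combination kidneys, 0.39, 0.411 and 0.371 CPM in cisplatin kidneys, 0.267, 0.295 and 0.268 CPM in CBLB502 kidneys and no count in control kidneys. Apcs had 0.214 to 1.23 CPM in combination kidneys, 1.26 to 2.18 CPM in cisplatin kidneys, 0.527 to 0.835 CPM in CBLB502 kidneys and 0 to 0.312 CPM in control kidneys. Neither pentraxin passed in a comparison among treated kidneys. For cisplatin against control, 4 of 10 members differed between the tissues (Orm1, Hp and Lbp lower in kidney than in liver, and Crp higher), against 14.2% of all genes.

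**Figure D3:**
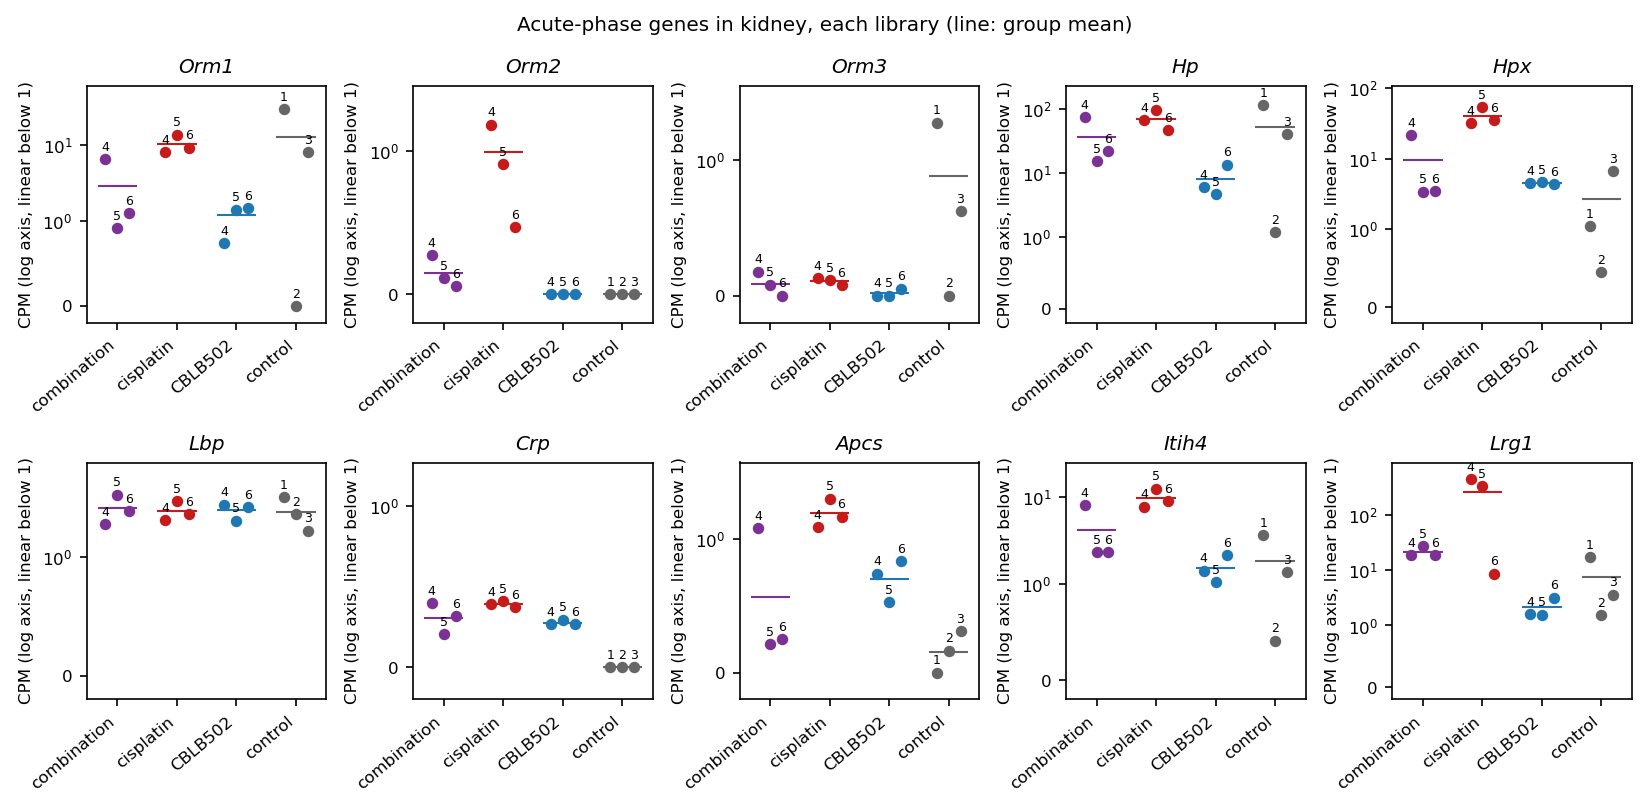
Each point is 1 kidney library, numbered as in the deposited table, with CPM on an axis that is linear below 1 and logarithmic above, and a line at the group mean (n = 3). Lrg1 reaches 436 CPM in cisplatin library 4, and Lbp stays between 1.77 and 3.83 CPM in all arms.

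Between the combination and cisplatin in kidney, edgeR called 0 of the 10 genes, as 1 gene of 20341 was called in all (0.00492%). Of the 10, 3 had an unadjusted p under 0.05, as did 2614 of all 20341 genes: Lrg1 (-3.58 ± 1.10), Orm2 (-2.75 ± 0.90) and Hpx (-2.09 ± 0.83). DESeq2 called Lrg1 alone (-3.62, adjusted p = 0.037), against 2.99% of all genes, and gave no adjusted p for 4 of the 10. EdgeR called Lrg1 without cisplatin library 6 (-4.15, adjusted p = 0.00113). The median of the 10 was -1.38, against 0 for all genes. The kidney and liver differences between the combination and cisplatin were also compared directly, with 0 of 10 called and none at an unadjusted p under 0.05, by edgeR (0.964% of all genes were called) and 0 by DESeq2 (5.45%).

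Against control kidneys, 2 of 10 were higher in the combination (Orm2 and Crp; 21.5% of all genes), 6 with cisplatin (Orm2, Hpx, Crp, Apcs, Itih4 and Lrg1; 24.1%) and 1 with CBLB502 (Crp; 11.4%). The control kidneys had no Crp count at 5.05 M to 10.1 M non-mitochondrial counts, so the Crp means were at least 5.66-fold higher in the combination, 7.22-fold with cisplatin and 5.11-fold with CBLB502, against 3 counts over the group. The kidney interaction passed for Crp alone, as lower (5.41% of all genes), and its fitted value is no bound. In control kidneys the values of Hp, Orm1, Orm3, Lrg1 and Itih4 were highest in library 1, then in library 3 and lowest in library 2. The same order held for the summed markers of adipocytes, erythroid cells, endothelium, lymphocytes and neutrophils, and the reverse order for proximal tubule markers. Macrophage, hepatocyte and other nephron markers took other orders. The 7 adipocyte markers summed to 111.7 to 334 CPM in combination, 126 to 279 CPM in cisplatin and 80.8 to 183 CPM in CBLB502 kidneys, against 4022, 96.6 and 1327 CPM in control kidneys 1, 2 and 3. In these controls erythroid markers summed to 1003, 189.6 and 757 CPM, endothelial markers to 507, 273 and 334 CPM and lymphocyte markers to 48.4, 15.7 and 19.2 CPM. Neutrophil markers summed to 5.24, 2.87 and 3.53 CPM there, and proximal tubule markers to 8627, 14736 and 10802 CPM. All 7 adipocyte markers were detected in each kidney library but control 2, where 2 were at 0, and 2 lymphocyte markers were at 0 in control 3. Hp is known to be made by fat cells too, and the part of these cells was not tested.

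Albumin (Alb), a hepatocyte transcript, was counted in each kidney library, at 141, 41.8 and 60.05 CPM in combination kidneys, 68.1, 121 and 88.5 CPM in cisplatin kidneys, 89.0, 82.2 and 86.6 CPM in CBLB502 kidneys and 21.9, 1.72 and 47.1 CPM in control kidneys. The 8 hepatocyte markers, Alb among them, summed to 1741 to 2028 CPM in combination, 957 to 1545 CPM in cisplatin, 713 to 1122 CPM in CBLB502 and 309 to 410 CPM in control kidneys. Combination kidney 5 had the lowest Alb of its arm but the highest such sum (2028 CPM), so a ratio depends on the marker used. The member counts were also set against Alb counts of the same library, and the lowest, median and highest ratios per 1000 Alb counts are given for each arm. Lbp and Lrg1 were higher per Alb count in every kidney than in any liver of the same arm, in all 3 treated arms. With cisplatin, Lbp had 27.5, 28.5 and 32.6 per 1000 Alb counts in kidneys and 2.15, 3.85 and 5.95 in livers, and Lrg1 had 97.0, 2676 and 6401 in kidneys and 8.80, 56.5 and 65.7 in livers. Hpx overlapped between the tissues in each treated arm, with 57.4, 81.0 and 154 in combination kidneys and 62.5, 70.8 and 73.1 in combination livers, 397, 444 and 472 in cisplatin kidneys and 227, 541 and 971 in cisplatin livers, and 50.3, 50.9 and 56.7 in CBLB502 kidneys and 47.6, 55.7 and 56.4 in CBLB502 livers.

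The other members differed by arm on this scale. Crp overlapped in the combination (2.83 to 5.28 in kidneys and 4.29 to 5.43 in livers) and with cisplatin (3.38 to 5.72 in kidneys and 3.23 to 5.82 in livers), and was lower in kidney with CBLB502 (3.0 to 3.59 in kidneys and 3.77 to 4.62 in livers). Itih4 was higher in kidney in the combination (38.4 to 56.7 in kidneys and 32.7 to 34.2 in livers) and overlapped with cisplatin (101 to 113 in kidneys and 46.8 to 157 in livers) and CBLB502 (12.6 to 24.6 in kidneys and 15.6 to 19.3 in livers). Orm1 did the same, higher in kidney in the combination (21.4 to 46.6 in kidneys and 15.1 to 17.7 in livers) and overlapping with cisplatin (104 to 117 in kidneys and 28.9 to 198 in livers) and CBLB502 (8.33 to 17.3 in kidneys and 8.87 to 9.89 in livers). None of these 3 genes overlapped between the tissues in all 3 arms. Apcs was higher in kidney in the combination (4.16 to 8.77 in kidneys and 3.23 to 4.11 in livers) and with CBLB502 (6.41 to 9.64 in kidneys and 1.39 to 1.60 in livers) and overlapped with cisplatin (17.4 to 18.4 in kidneys and 3.59 to 28.5 in livers). Hp was higher in kidney in the combination (361 to 524 in kidneys and 180.0 to 212 in livers) and with CBLB502 (57.3 to 156 in kidneys and 29.1 to 40.5 in livers), and overlapped with cisplatin (522 to 974 in kidneys and 123 to 537 in livers). Orm2 and Orm3 rested on few kidney counts. Whether hepatocyte RNA from outside the kidney contributed to these kidney values was not tested.

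**Figure D4:**
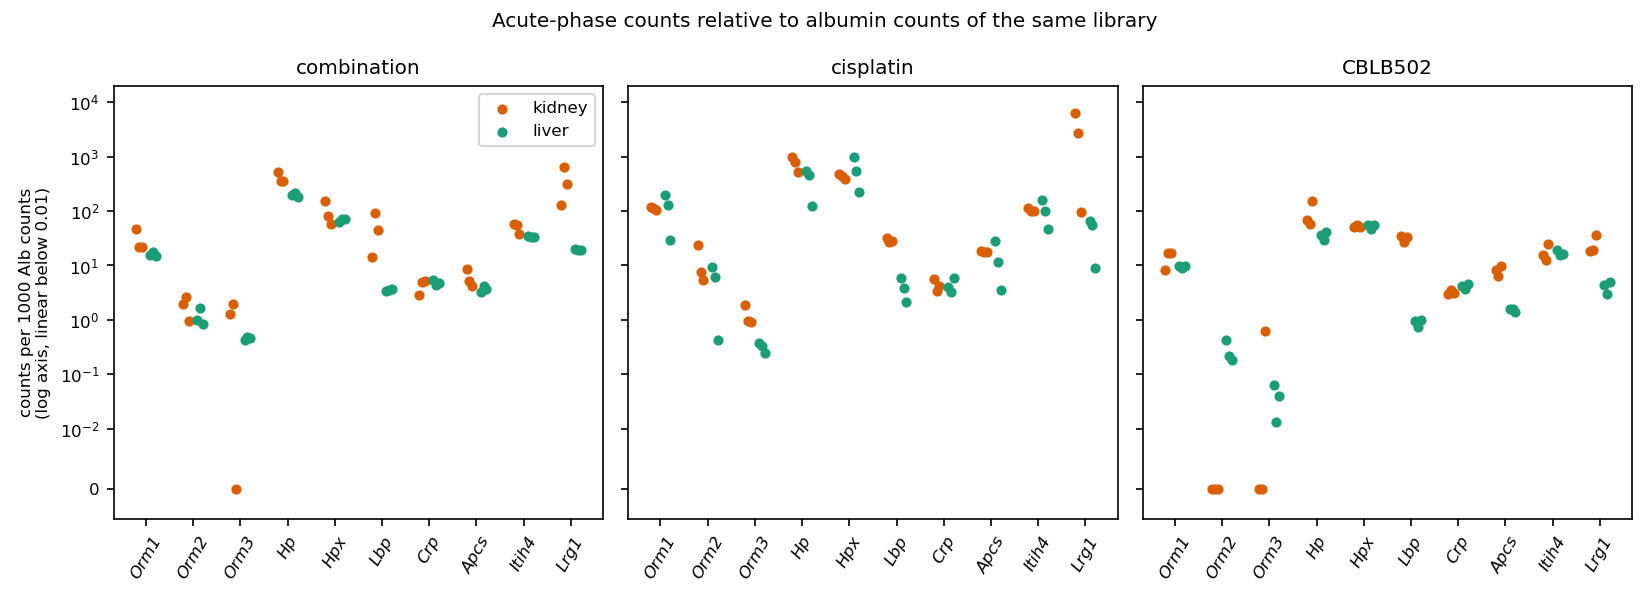
Counts of each gene per 1000 Alb counts of the same library, in kidney and liver of the 3 treated arms, on an axis that is linear below 0.01 and logarithmic above (each point 1 library). Lrg1 and Lbp of the kidney lie above the liver in each panel, Hpx overlaps the liver in each, and the other genes do so in some panels only.

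Genes of the pathway upstream were taken from a list of 32 signalling genes for interleukin-6, interleukin-1, TNF and C/EBP, of which 29 were tested in liver and 30 in kidney. The cytokine Il6 was too low to test in both tissues, with at most 68 counts in a kidney library and 22 in a liver library. In liver 8 of the 29 were higher and 2 lower with cisplatin than with CBLB502 (7.7% of all genes were higher and 4.84% lower), and the 3 with the largest change were Cebpd, a C/EBP factor (3.65 ± 0.46, adjusted p = 0.00103 from edgeR), Socs3, the feedback inhibitor induced by STAT3 (3.64 ± 1.02, adjusted p = 0.0387), and the interleukin-1 receptor Il1r1 (3.29 ± 0.54, adjusted p = 0.00337). In the combination 5 were higher and 2 lower than with CBLB502 (2.88% and 3.86% of all genes), led by Il1r1 (2.54 ± 0.52), Lifr, a receptor of the interleukin-6 family, which was lower (-2.33 ± 0.61), and the interleukin-6 receptor Il6ra (1.88 ± 0.45). Between the combination and cisplatin in liver edgeR called none of the 29, against 3.57% of all genes. An unadjusted p under 0.05 was seen for 11 of the 29, against 3790 of all 17931 genes. DESeq2 called 6 of the 29, against 14.2% of all genes. In kidney 11 of 30 were higher and 4 lower with cisplatin than with CBLB502 (18.5% and 10.2% of all genes), led by Socs3 (5.66 ± 0.88), Cebpd (4.64 ± 0.72) and Cebpb (3.71 ± 0.52).

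Stat3 itself had 76.1, 104 and 85.2 CPM in combination livers, 183, 164 and 76.7 CPM in cisplatin livers, 36.4, 37.6 and 32.4 CPM in CBLB502 livers and 27.0, 25.9 and 31.4 CPM in control livers. Cisplatin library 3 again sat at the level of the combination. Stat3 rose 3.98-fold with cisplatin over CBLB502 (1.99 ± 0.29, adjusted p = 0.00214) and 2.49-fold in the combination (1.32 ± 0.29, adjusted p = 0.0195). Socs3 had 8.62, 20.4 and 11.6 CPM in combination livers, 217, 295 and 15.2 CPM in cisplatin livers, 32.3, 5.08 and 5.0 CPM in CBLB502 livers and 9.59, 25.4 and 11.9 CPM in control livers. Its high values were in cisplatin libraries 1 and 2 alone. Cebpd had 14.9, 16.9 and 19.5 CPM in combination livers, 36.3, 25.9 and 9.19 CPM in cisplatin livers, 1.9, 1.91 and 1.86 CPM in CBLB502 livers and 2.12, 1.47 and 3.72 CPM in control livers. Unlike Socs3, it stayed above CBLB502 in each combination liver (3.18 ± 0.45, adjusted p = 0.00196). In kidney Socs3 had 11.5, 19.3 and 11.5 CPM in combination, 134, 90.9 and 8.57 CPM in cisplatin, 1.99, 1.37 and 1.25 CPM in CBLB502 and 6.43, 2.75 and 1.30 CPM in control kidneys.

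**Figure D5:**
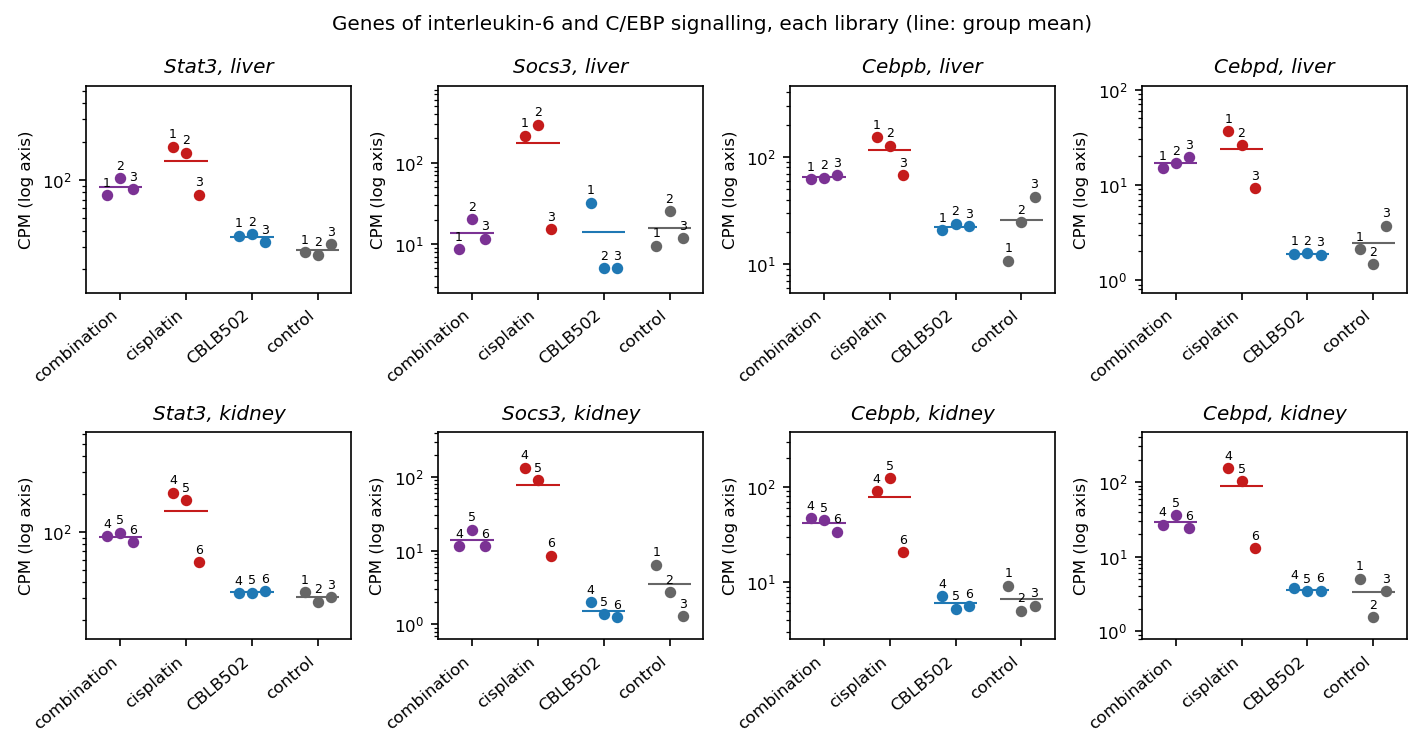
CPM of Stat3, Socs3, Cebpb and Cebpd in each liver and kidney library on log axes, with a line at the group mean (n = 3). Cisplatin library 3 in liver and library 6 in kidney are the lowest of the cisplatin arm in all 8 panels.

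Other acute-phase genes were followed through a list of 25, all tested. With cisplatin 20 of 25 were higher than with CBLB502 in liver (median 3.02 on the log2 scale) and 19 in kidney (median 3.44), and none lower in either, against 7.7% of all genes higher in liver and 18.5% in kidney. The largest changes in liver were those of the metal-binding Mt2 (9.63 ± 1.16), the serum amyloid Saa2 (9.60 ± 1.89) and the iron-siderophore binder Lcn2 (9.57 ± 1.42). In the combination 7 were lower than with cisplatin in liver, led by Cd14 (-6.67 ± 1.45), Il1rn (-6.14 ± 1.42) and Saa1 (-5.37 ± 1.32), and 7 were higher than with CBLB502, against 2.58% and 2.88% of all genes. In kidney 12 were higher in the combination than with CBLB502 (14.9% of all genes), and 0 differed from cisplatin by edgeR (0.00492% of all genes). An unadjusted p under 0.05 was seen there for 12 of 25, against 2614 of all 20341 genes. DESeq2 called 5 of 25, against 2.99% of all genes, and gave no adjusted p for 2. A list of 11 genes held plasma proteins mostly known to decrease in an acute-phase response. It includes Itih3, which is known in humans as a positive acute-phase protein. With cisplatin 4 of 11 were higher and 1 lower than with CBLB502 in kidney (18.5% and 10.2% of all genes), and 4 were higher and none lower in liver (7.7% and 4.84%), with Itih3 (2.65 ± 0.43), Apoa4 (2.64 ± 0.22) and Ahsg (1.51 ± 0.37) the most changed in liver. Itih3 belongs to the same inhibitor family as Itih4.

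Receptors and partners of the 10 proteins formed a list of 18. With cisplatin 2 were higher and 2 lower than with CBLB502 in liver, against 7.7% and 4.84% of all genes, the higher being Cd14, the receptor that Lbp serves (7.25 ± 1.49, adjusted p = 0.0107 from edgeR), and Itih3. In combination livers 8 of 18 were lower and 1 higher than with CBLB502, against 3.86% and 2.88% of all genes, with a median of -1.58 against 0.02. Relative to cisplatin 3 were lower and 0 higher in the combination, against 2.58% of all genes lower, with a median of -1.03 against 0.01. Cd14 had 1.79, 3.01 and 1.94 CPM in combination livers, 494, 193 and 0.751 CPM in cisplatin livers, 1.96, 1.11 and 1.44 CPM in CBLB502 livers and 1.21, 0.851 and 1.21 CPM in control livers. High values were confined to cisplatin libraries 1 and 2, and in the combination Cd14 fell relative to cisplatin (-6.67 ± 1.45, adjusted p = 0.0331) while Lbp did not pass. The heme-degrading enzyme Hmox1, which acts on heme brought in by hemopexin, had 0.82, 1.69 and 1.88 CPM in combination livers, 30.6, 13.1 and 4.78 CPM in cisplatin livers, 18, 10.5 and 11.1 CPM in CBLB502 livers and 18, 8.28 and 20.8 CPM in control livers. It fell in the combination relative to cisplatin (-3.46 ± 0.63, adjusted p = 0.0177) and to CBLB502 (-3.17 ± 0.62, adjusted p = 0.0113), with all combination livers below all others. In kidney 4 of 18 were higher and 5 lower with cisplatin than with CBLB502 (18.5% and 10.2% of all genes), led by Cd14 (6.63 ± 1.10), Hmox1 (3.22 ± 0.67) and Ambp (1.57 ± 0.45).

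Likeness was measured as Pearson's r of log2 CPM to the mean standardised profile of the 10 genes over the 9 treated libraries of a tissue, as a description without a test, since the libraries share arms. In liver the 5 genes most alike were Stat3 (0.996), Vtn (0.995), Pnrc1 (0.994), Ric8a (0.993) and Kng2 (0.993), and 515 of 7961 genes had r above 0.9. Among the members themselves, r to the mean of the others in liver was highest for Hp (0.984) and lowest for Crp (0.494). In kidney the 5 most alike were Rpl17-ps10 (0.955), Saa2 (0.947), Ryk (0.946), Ino80e (0.944) and Sccpdh (0.939), and 26 of 10257 genes had r above 0.9. Itih4 (0.979) followed the others most closely in kidney and Lbp (-0.251) least.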

How the data were processed

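The authors deposited a table of raw read counts and FPKM (fragments per kilobase, scaled to depth) per gene and library, per the file headers. Per the submitters' processing notes reads were handled with cutadapt 1.9 and FastQC. The sources used here do not give the aligner, counter, strand setting, build or FPKM length. Coordinates matched GENCODE vM21 (GRCm38) for 99.65% of IDs, with all 33156 of these on the same chromosome. Control and liver columns were tied to samples by number. Treated kidney columns carry the numbers 4 to 6, which the labels lack, and were tied to groups only. The 9 FPKM columns of treated kidneys were not used. Deposited FPKM served only to derive each gene's length for CPM per kb.

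Counts were tested with edgeR 4.0.16 (R 4.3.3) by filterByExpr, TMM, the quasi-likelihood test and Benjamini-Hochberg adjustment at 0.05. Fits held the 12 libraries of a tissue (17931 genes in liver, 20341 in kidney), or all 24 for comparisons between tissues (21570 genes). Alternatives were median-of-ratios scaling, no filter, DESeq2 1.42.0, leaving out the 37 mitochondrial genes with 7 nuclear copies, a replicate block, and leaving out single libraries. A fit without control libraries was added after seeing the data. Fitted values of groups without counts are no bounds, so folds there are set against 3 counts over the group. The fit was also run on simulated liver counts with the same spread in every library. Those held no outlying library and no difference in kind between libraries, so that run says nothing about either. No 2 libraries of a group agreed within sampling noise. Promoters came from RefSeq (GRCm38.p6) for 7 of 10 members. The rule for named genes was all 10 members, up to 3 called genes per list and comparison with the largest change and at least 5 CPM per kb in the higher group, and the 5 genes most alike per tissue with at least 5 CPM. Alb and Cebpb in liver were added after values were seen. The members and lists were chosen with earlier results of these data known.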

Additional observations from a re-analysis of the deposited data

Results flagged for a closer look

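For 5 results the change differed between kidney and liver by a test of the difference itself (edgeR, all 24 libraries, adjusted over 21570 genes). Lbp differed for cisplatin against CBLB502 by -0.02 ± 0.35 in kidney and 2.56 ± 0.41 in liver, a kidney minus liver difference of -2.70 (adjusted p = 0.00799). The same gene differed for cisplatin against control by 0.04 ± 0.36 in kidney and 2.79 ± 0.42 in liver, a difference of -2.68 (adjusted p = 0.0021). All arms of Lbp overlapped in kidney.

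Orm1 differed for cisplatin against control by -0.27 ± 1.18 in kidney and 4.29 ± 0.66 in liver, a difference of -4.47 (adjusted p = 0.0461). Hp differed by 0.44 ± 1.0 in kidney and 4.35 ± 0.54 in liver, a difference of -3.84 (adjusted p = 0.0445). In control kidneys both genes took the order of the adipocyte, erythroid, endothelial, lymphocyte and neutrophil markers over the 3 libraries. The part of that in the differences was not tested. Without control kidney 1, Orm1 had -2.86 and Hp -2.56, and both calls were lost without any 1 library other than liver cisplatin library 3 or kidney control library 2. The kidney minus liver difference of Crp was 5.28 (adjusted p = 0.0274), with no count in control kidneys, so this fitted value is no bound, and the call was lost without any 1 of the control kidneys. Of the 10 genes 4 were called in this comparison, against 14.2% of all genes. Groups of 3 libraries were not tested for outlying libraries.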

How the results depend on the processing

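Of 21 counts of called members, 20 stayed within 1.5 times under median-of-ratios scaling, 20 without the filter, 16 with DESeq2 and 21 without mitochondrial genes, as did 7 of 7 with the replicate block and 11 of 11 without control libraries. The counts that moved under DESeq2 were 5 for the liver and 1 for the kidney combination against cisplatin, 2 for kidney CBLB502 against control, 1 for kidney combination against control and 2 for the kidney interaction. In these comparisons DESeq2 also called more of all genes, in this order 14.2%, 2.99%, 25.0%, 41.6% and 15.1%. The shares by edgeR were 3.57%, 0.00492%, 19.2%, 36.5% and 8.01%. The kidney combination had 1 called member against CBLB502 under median-of-ratios scaling and 1 against control without the filter. Leaving out 1 library at a time gave 0 to 7 called members for the liver combination against cisplatin and 2 to 3 for it against CBLB502. In kidney it gave 0 to 1 for the combination against cisplatin, 2 to 5 for cisplatin against CBLB502, 1 in each case for the combination against CBLB502, 1 to 4 for CBLB502 against control, 1 to 2 for the combination against control and 0 to 3 for the interaction. The tissue difference gave 1 to 2 for cisplatin against CBLB502 and 1 to 4 for cisplatin against control. Against control livers, CBLB502 livers had Orm1 at 0.22 and Lbp at 0.23, against -0.0171 and -0.0155 under median-of-ratios scaling and -0.0171 and -0.0154 under DESeq2. Uncalled values that changed sign with 1 library left out were, in liver, Crp (-0.0127 to 0.22) and Lbp (-0.63 to 0.0527) in the combination against cisplatin, Orm1 in CBLB502 against control (-0.0497 to 0.67) and Orm3 in cisplatin against control (-0.11 to 1.72). In kidney they were Lbp in cisplatin against CBLB502 (-0.22 to 0.10), and Lbp (-0.18 to 0.28) and Orm3 (-1.38 to 0.26) in the combination against cisplatin. The cause was not tested.

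In liver the replicate numbers did not pair the libraries: same-numbered libraries correlated between -0.169 and 0.176 in their deviations from the group means. With the replicate block the called members were 2 for the combination against cisplatin, 3 for it against CBLB502 and 5 for the interaction, and the adjusted p of Lrg1 in the combination against CBLB502 was 0.0574. In kidney, no paired analysis was possible because the treated columns carry numbers 4 to 6, which are no replicate numbers of the labels, so these columns could be tied to groups but not to numbered samples; a block by column number was not run. Depth limits the control libraries most, with 2.82 M to 4.65 M non-mitochondrial counts in liver, and the members with few kidney counts (Orm2, Orm3, Crp and Apcs).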
